A study of Mus musculus with 13 samples.

Results

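A set of 10 genes that build or stabilise desmosomes was followed in mouse mammary tumours and wild-type mammary glands: Dsg2, Dsg3, Dsc2, Dsc3, Dsp, Pkp1, Pkp2, Pkp3, Jup and Perp. They were chosen by name among the 38279 gene symbols of the count table, with earlier results of these data known, and sorted by their textbook distribution. Dsg2, Dsc2 and Pkp2 (3 genes) are the forms found in simple epithelium, Dsg3, Dsc3, Pkp1 and Perp (4 genes) are typical of stratified epithelium, and Dsp, Jup and Pkp3 (3 genes) are shared by both. All 10 passed the filter on low counts, Dsg3 through its counts in the tumours alone.

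Desmosomes are button-like junctions that tie the keratin filaments of one epithelial cell to those of the next. Their cadherins, the desmogleins and desmocollins, span the membrane and bind across the gap. Armadillo proteins (plakoglobin and the plakophilins) gather at the cadherin tails, and desmoplakin links them to keratin. In the mammary gland, luminal and myoepithelial cells hold to each other and to their own kind through these junctions, and stratified epithelia such as epidermis use cadherins and plakophilins that simple epithelia mostly lack.

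The libraries were made from polyA RNA of 6 mammary tumours from Cre-positive mice and 4 whole mammary glands from Cre-negative (wild-type) mice. Mating, which took place at the age of 12 weeks in both genotypes, induces excision of Fbxw7, a ubiquitin ligase subunit, where Cre is present. Glands 1, 2 and 3 came from mice of 20 weeks and gland 4 from a mouse of 40 weeks. Tumours 1 to 6 came from mice of 25, 32, 39, 19, 53 and 25 weeks. The labels name neither the promoter that drives Cre nor the strain, so the cells in which Fbxw7 was excised are not known here. Genotype and tumour state differ together between the groups and cannot be told apart, while their ages overlap.

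Total counts ran from 13723065 (gland 3) to 48353114 (gland 2). Several libraries held RNA of other tissues. Salivary gland markers took 50.4% of all counts in tumour 1 and 18.6% in tumour 6, against at most 0.0521% elsewhere, although both are labelled as mammary tumours. Skeletal muscle markers took 6.59% of counts in gland 4, 1.27% in gland 1 and 0.598% in gland 2. The summed level of 7 T and B cell markers was 420 and 372 CPM (read counts relative to library size, after TMM scaling) in glands 2 and 3, against 13.9 and 1.2 CPM in glands 1 and 4. The 8 epidermis markers in the count table summed to 141 CPM in tumour 4, against 2.80 to 8.82 CPM in the other libraries. The 8 adipocyte markers summed to between 3871 and 23342 CPM in the glands and between 9.28 and 1015 CPM in the tumours. The summed level of 10 general epithelial markers was 458 to 767 CPM in glands and 1790 to 4197 CPM in tumours, and that of 6 milk and secretory markers was 26.4 to 69.7 CPM in glands and 436 to 24804 CPM in tumours. In such bulk tissue, fewer epithelial cells and less RNA per epithelial cell cannot be told apart. The desmosome genes are therefore also given relative to the general epithelial markers, and the count called also without libraries named here. No fit left out glands 1, 2 and 4 together.

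Promoter sequences were at hand for 2 of the 10 genes, Jup and Dsp, and they are shown because these are plaque proteins shared by desmosomes of simple and stratified epithelium and because Dsp rose in the tumours while Jup missed the threshold. Both come from RefSeq (GRCm38.p6) and run 5′ to 3′ toward the start site on the gene's own strand: 201 bases at chr11:100397840-100398040 (minus strand) for Jup and 250 bases at chr13:38151044-38151293 (plus strand) for Dsp. Capitals mark GGGCGG, the core of an Sp1 site, on either strand (CCGCCC when reversed), and in Dsp also 1 match to the p53 family half-site.
Jup: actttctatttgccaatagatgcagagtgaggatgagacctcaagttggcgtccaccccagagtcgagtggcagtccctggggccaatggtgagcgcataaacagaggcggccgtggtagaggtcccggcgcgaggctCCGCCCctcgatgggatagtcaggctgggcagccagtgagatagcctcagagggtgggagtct
Dsp: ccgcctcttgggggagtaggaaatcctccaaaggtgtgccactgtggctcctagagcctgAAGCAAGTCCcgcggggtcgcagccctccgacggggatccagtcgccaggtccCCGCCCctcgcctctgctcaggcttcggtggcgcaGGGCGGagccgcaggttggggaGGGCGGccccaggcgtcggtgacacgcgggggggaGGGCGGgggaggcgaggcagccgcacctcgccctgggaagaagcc
The Dsp sequence held 4 GGGCGG matches, at 137, 102, 80 and 45 bases before the start, and its p53 family half-site lay at 190 bases. Over 250 bases, Jup held 2 GGGCGG matches, at 112 bases and, outside the stretch printed, at 42 bases. Among 32851 promoter windows of that length, 32.7% held GGGCGG and 7.13% held the p53 family half-site. Neither window held CACCTG (the E-box of Snail and Zeb factors), AACNNGTT (a Grainyhead-like site) or TATAAA, searched on both strands, which were in 17.2%, 3.64% and 12.4% of all windows. GC content was 72.4% for Dsp and 62.0% for Jup, against a median of 52.4%. A match is a description of letters and was not tied to any measurement of binding.

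Of the 10 desmosome genes, 7 were higher in tumours than in glands and 0 were lower by edgeR's quasi-likelihood test at an adjusted p of 0.05. Across all 20101 genes tested, 6.89% were called higher and 8.19% lower. These shares are a background for a list chosen with earlier results known, and no test was made over the list. The 7 genes were Dsg2, Dsc2, Dsg3, Pkp1, Perp, Dsp and Pkp3. The median log2 fold change of the 10 genes was 2.71, against 0.17 over all genes tested. By class the median was 2.58 for simple, 5.17 for stratified and 1.70 for shared members. Tumours and glands did not overlap for 7 of the 10 genes, with tumours higher, which was the case for 6.54% of all genes. Without tumour 4, 7 genes were called (883 of 19504 genes higher). Without tumours 1 and 6, 7 genes were again called (10.1% of all genes higher). Without those and gland 4, the count was 6 (8.64%), and without glands 2 and 3 it was also 6 (0.789%), the gene lost being Pkp3 in both. With age as a covariate it was 6 as well (4.52%), again without Pkp3, and Dsg3 was at a log2 fold change of 8.62 and Perp at 5.21 (adjusted p = 0.0030 for each, edgeR). DESeq2 and edgeR with upper-quartile scaling each called 9 of the 10 higher, all but Dsc3, with 13.2% and 9.0% of all genes called higher.

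**Figure D1:**
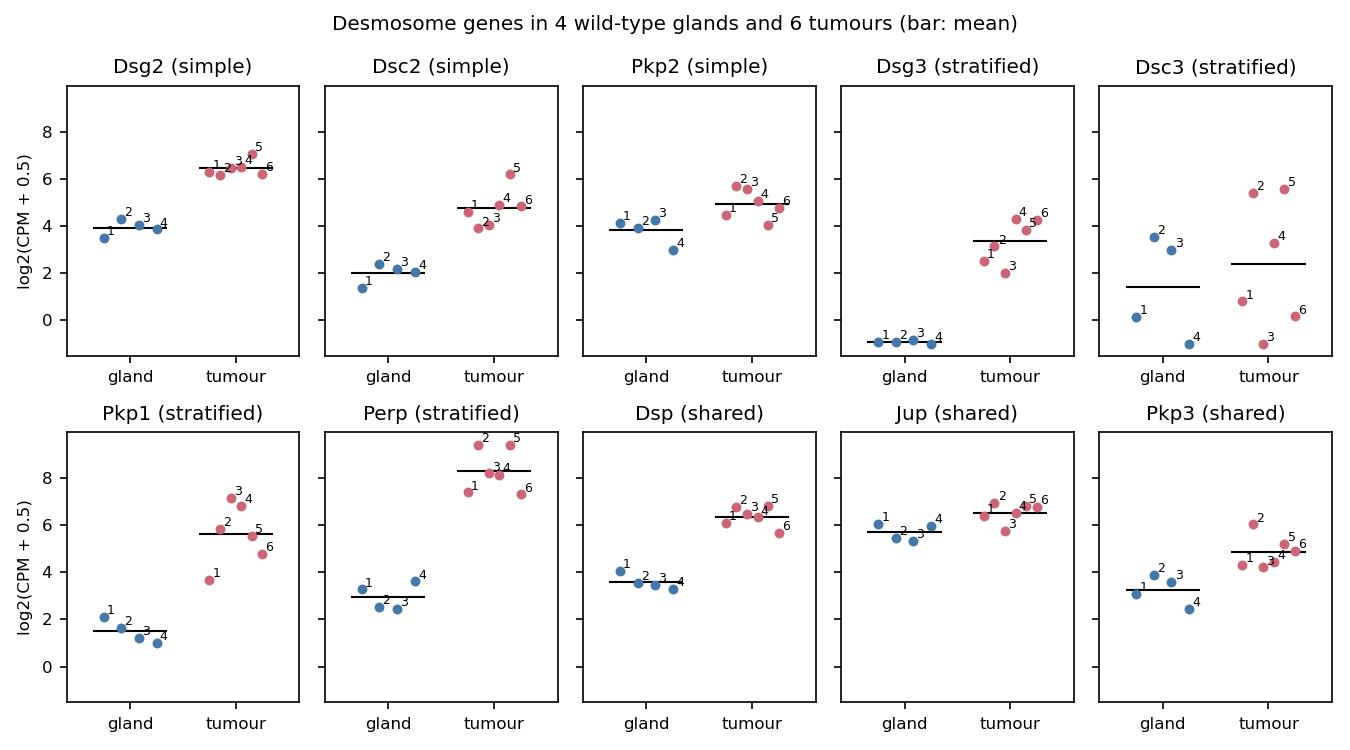
Level of each desmosome gene as log2(CPM + 0.5) in 4 wild-type glands (blue) and 6 tumours (red), with TMM-scaled CPM, the library number beside each point and a bar at the group mean. Dsg2, Dsc2, Dsg3, Pkp1, Perp, Dsp and Pkp3 do not overlap between the groups on this scale, while Pkp2, Dsc3 and Jup do.

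The desmosomal cadherins of simple epithelium were both higher in tumours. Dsg2, the most widely distributed desmoglein, was at 10.6, 19.1, 15.9 and 13.9 CPM in glands 1 to 4 and at 71.4 (lowest), 83.2 (median) and 133 CPM (highest, tumour 5) in the tumours. Every tumour exceeded every gland. The log2 fold change of Dsg2 was 2.58 (SE 0.30, adjusted p = 0.0018, edgeR), or 2.44 to 2.72 when each library was left out in turn.

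Dsc2, its desmocollin partner, was at 2.08, 4.70, 4.05 and 3.61 CPM in glands 1 to 4. In tumours its lowest, median and highest values were 14.4, 25.8 and 72.3 CPM, the last again in tumour 5, and the groups did not overlap. The log2 fold change was 3.08 (SE 0.52, adjusted p = 0.0063, edgeR).

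Pkp2, the plakophilin of simple epithelium and heart, overlapped between the groups. It was at 16.8, 14.6, 18.4 and 7.42 CPM in glands 1 to 4 and at 16.0 (tumour 5), 29.7 and 51.1 CPM (lowest, median and highest) in tumours. In 5 of 6 tumours it exceeded every gland, and tumour 5, which had the most Dsg2 and Dsc2, fell inside the gland range. The log2 difference of 1.18 (SE 0.40) did not pass in edgeR (adjusted p = 0.0652). It did pass in DESeq2 (adjusted p = 0.028), with upper-quartile scaling (0.0385) and without tumour 5 (0.0431), and over all libraries left out in turn the adjusted p ran to 0.146. Over the 6 tumours, Pkp2 and Dsc2 had a Pearson correlation of -0.88, the lowest of the 45 pairs of desmosome genes, whose median was 0.23; these are descriptions over libraries that share 1 scaling.

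Of the stratified members, Dsg3, the desmoglein targeted by autoantibodies in pemphigus vulgaris, had the largest log2 fold change of the 10 genes. It gave 1, 2, 1 and 0 counts in glands 1 to 4, or 0.028, 0.031, 0.056 and 0 CPM, where 0 counts in gland 4 allow up to 0.190 CPM by counting error alone. Tumours 1 to 6 gave 77, 545, 142, 1117, 734 and 661 counts, or 5.26, 8.22, 3.50, 19.3, 13.6 and 18.4 CPM. The gland signal was at the limit of detection and every tumour was far above it.

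The fitted log2 fold change of Dsg3 was 8.44 (SE 0.85, adjusted p = 0.0016, edgeR) and ran from 8.17 to 8.69 with each library left out. Because it rests on 4 gland counts, the ratio of summed rates, 3276 counts against 4, is also given: 405, with a 95% interval of 158 to 1488 that covers counting error only. Dsg3 ranked 52 of 20101 genes by log2 fold change, having passed the filter through its tumour counts alone. With no filter on low counts its log2 fold change was 8.42 (SE 0.86, adjusted p = 0.0019, edgeR). Per kilobase of transcript it had the lowest mean of the 10 in the tumours, at 1.83 ± 1.08 CPM per kilobase (SD, n = 6). In single tumours Dsg3 was the lowest in 2 and Dsc3 in 4.

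Dsc3, the desmocollin found with Dsg3 in basal layers, varied widely within both groups. Its counts were 21, 708, 132 and 0 across the 4 glands in order (0.60, 11, 7.33 and 0 CPM). The tumours, in order, had 18, 2786, 0, 527, 2528 and 22 counts (1.23, 42.0, 0, 9.11, 46.9 and 0.61 CPM). Both groups held libraries with no Dsc3 count at all and libraries with 132 counts or more. The groups overlapped, with tumours 2 and 5 above every gland. In tumour 3, 0 counts allow up to 0.074 CPM. The log2 difference was 1.81 (SE 1.71, adjusted p = 0.468, edgeR), and it was not called in any fit that left out a library. The 2 glands with the most Dsc3 were glands 2 and 3, the same libraries that carried T and B cell markers at 420 and 372 CPM; whether that tissue contributed Dsc3 was not tested. Without both, the log2 difference was 5.65 (SE 2.82, adjusted p = 0.285).

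Pkp1, the plakophilin of the upper layers of stratified epithelium, whose loss causes skin fragility, was at 3.81, 2.63, 1.83 and 1.52 CPM in glands 1 to 4. In tumours it was at 12.2 (tumour 1), 51.7 and 141 CPM (tumour 3) as lowest, median and highest, with no overlap. Its rise was 4.74 on the log2 scale (SE 0.73, adjusted p = 0.0045, edgeR), or 4.37 to 5.03 with each library left out.

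Perp, a tetraspan membrane protein required for desmosome assembly in stratified epithelia and a known target of p53 and p63, was at 9.19, 5.28, 5.0 and 11.7 CPM in glands 1 to 4. In tumours 1 to 6 it was at 168, 681, 294, 281, 682 and 158 CPM. Every tumour lay far above every gland. Its log2 fold change was 5.60 (SE 0.65, adjusted p = 0.0018, edgeR), with a range of 5.35 to 5.81 over libraries left out, and it ranked 154 of 20101 genes. As a p53 target Perp is read beside Trp53 itself, whose log2 difference was 0.94 (SE 0.47, adjusted p = 0.181), and Trp63, at 2.38 (SE 1.07, adjusted p = 0.146). These are RNA levels, and the activity of either protein was not measured.

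The shared plaque proteins had the lowest class median, given above. Dsp, desmoplakin, was at 16.2, 11.2, 10.5 and 9.26 CPM in glands 1 to 4 and at 50.7, 84.6 and 113 CPM (lowest, median and highest) in tumours. Every tumour was above every gland. The log2 fold change was 2.85 (SE 0.32, adjusted p = 0.0018, edgeR).

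Jup, plakoglobin, which also serves adherens junctions, was at 65.4, 43.3, 39.7 and 62.3 CPM in glands 1 to 4. Its lowest tumour value was 53.9 CPM (tumour 3), the median 99.9 and the highest 122 CPM, and 5 of 6 tumours exceeded every gland. The log2 difference of 0.86 (SE 0.29) missed the threshold in edgeR (adjusted p = 0.0696) and passed in DESeq2 (0.0251), with upper-quartile scaling (0.0419) and without tumour 3 (0.0307).

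Pkp3, a plakophilin of nearly all epithelia, was at 8.05, 14.4, 11.6 and 4.95 CPM in glands 1 to 4 and at 18.0, 25.5 and 65.0 CPM (lowest, median and highest) in tumours, with no overlap. Its log2 fold change of 1.70 (SE 0.45, adjusted p = 0.0312, edgeR) was the least stable of the 7 calls. It was lost without gland 1, 3 or 4 (adjusted p = 0.0998, 0.0669 and 0.0784), with no filter on low counts (0.0559), with age as a covariate (0.0632), without glands 2 and 3 (0.0769) and without tumours 1 and 6 and gland 4 (0.0694).

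**Figure D2:**
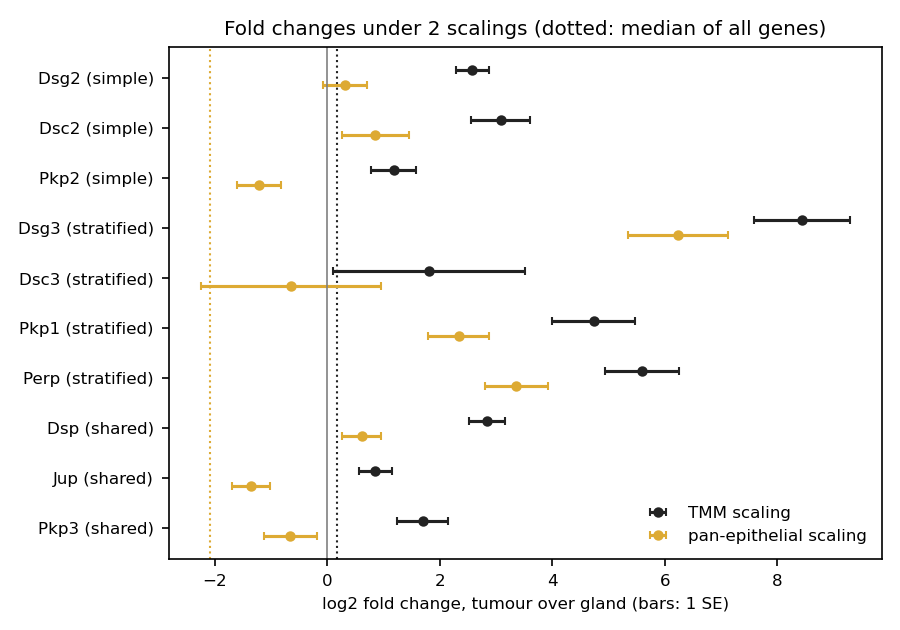
Log2 fold change of each desmosome gene, tumour over gland, with bars of 1 standard error, after TMM scaling (black) and after scaling to 10 general epithelial genes (yellow); dotted lines give the median of all genes, 0.17 and -2.09. Dsg3, Perp and Pkp1 were called higher under both scalings, while Pkp2, Jup, Dsc3 and Pkp3 changed sign between them.

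The levels were next set against the epithelial content of each library. Each library was rescaled so that the geometric mean of Cdh1, Epcam, Krt8, Krt18, Krt19, Cldn3, Cldn4, Cldn7, Esrp1 and Spint2 was equal, which moved the median of all genes to -2.09. On this scale 1.17% of all genes were called higher and 67.6% lower. The 3 desmosome genes called higher were all stratified members: Dsg3 at 6.23 (SE 0.89, adjusted p = 0.0001), Perp at 3.36 (SE 0.56, adjusted p = 0.0003) and Pkp1 at 2.34 (SE 0.55, adjusted p = 0.0025), all by edgeR. These held in each of 10 fits that left out a library, with ranges of 5.95 to 6.63, 2.98 to 3.59 and 1.99 to 2.51. They were also called without tumours 1 and 6, without gland 4 in addition, and when the keratins were taken out of the scaling genes.

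Dsg2 (0.32), Dsc2 (0.86) and Dsp (0.61), each called higher after TMM scaling, were close to the epithelial genes and were not called, with adjusted p-values of 0.488, 0.22 and 0.138 (edgeR). Dsg2 was at -0.039 when the keratins were taken out of the scaling genes. Jup and Pkp2, whose differences were positive after TMM scaling, were called lower here, at -1.35 (SE 0.34, adjusted p = 0.0039) and -1.21 (SE 0.39, adjusted p = 0.0145). These 2 of 10 genes called lower stand against 67.6% of all genes. Pkp2 lost its call without gland 3 (adjusted p = 0.0801). Dsc3 (-0.64, adjusted p = 0.733) and Pkp3 (-0.66, adjusted p = 0.229) also turned negative and were not called.

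By library, the log2 level of Perp minus the mean of the epithelial genes was -2.74 to -1.76 in glands and -0.34 to 2.12 in tumours. For Pkp1 the same difference was -4.36 to -3.49 in glands and -3.11 to -0.61 in tumours. Neither overlapped, which on this measure was so, with tumours higher, for 0.124% of all genes. For Jup the difference was 0.18 to 0.60 in glands and -1.99 to -0.37 in tumours. These differences use CPM without transcript length, so their sign does not place a gene above or below the epithelial genes. For Dsg3 the highest gland and the lowest tumour were both at -5.75, since the pseudocount of 0.5 CPM sets the gland value.

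**Figure D3:**
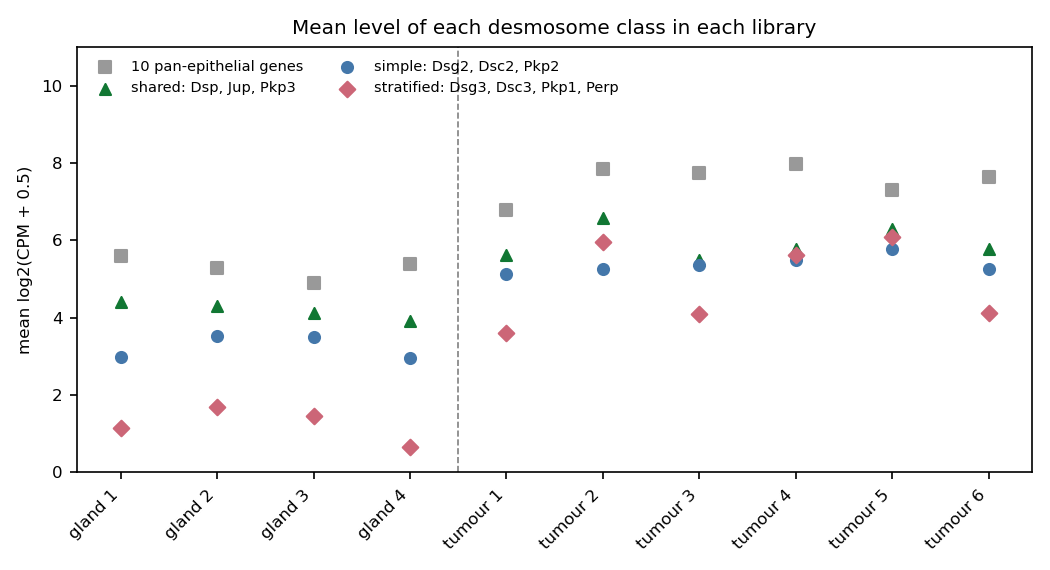
Mean log2(CPM + 0.5) of the simple (blue circles), stratified (red diamonds) and shared (green triangles) desmosome genes and of 10 general epithelial genes (grey squares) in each library, with a dashed line between glands and tumours. The stratified mean is the lowest in every gland and meets or exceeds the simple mean in tumours 2, 4 and 5.

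To set the classes side by side, the mean log2(CPM + 0.5) of the 3 simple members was subtracted from that of the 4 stratified members in each library. The result was -1.84, -1.83, -2.04 and -2.30 in the glands, in order. For tumours 1 to 6 it was -1.53, 0.70, -1.27, 0.14, 0.33 and -1.14. All tumours were above all glands, with tumours 2, 4 and 5 above 0 and tumours 1, 3 and 6 between -1.53 and -1.14. The mean was -2.0 (SD 0.22, n = 4) in glands and -0.46 (SD 0.96, n = 6) in tumours, a difference of 1.54. Its size depends on the pseudocount, since Dsg3 lies below 0.5 CPM in every gland. The difference was 2.09 with a pseudocount of 0.1 and 1.05 with a pseudocount of 2. This score was made from chosen genes and carries no test. The stratified mean itself was 3.67 higher in tumours, the simple mean 2.13 and the shared mean 1.74, next to 2.26 for the epithelial genes. Without Perp the difference between classes was 0.98, and tumours 1, 3 and 6 then fell within the range of the glands. The separation of all tumours from all glands was thus lost without Perp. Perp was the only member taken out of the score, so this dependence is not shown to be particular to it. Without tumours 1 and 6, where salivary RNA was present, the difference with Perp included was 1.97.

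Within pairs of related genes the balance of counts moved for 2 of 3 pairs. How often the shares of other gene pairs separate these groups was not counted. Dsg3 made up 0.267%, 0.163%, 0.348% and 0% of the summed Dsg3 and Dsg2 counts in glands 1 to 4, the 0% being 0 of 219 counts, which allows up to 1.37%. In tumours 1 to 6 it made up 6.30%, 10.3%, 3.82%, 17.7%, 9.27% and 20.0%. Per kilobase of transcript too, Dsg2 exceeded Dsg3 in all 10 libraries. The share of Dsg3 did not overlap between groups. Shares use counts and not counts per length, which leaves comparisons across libraries intact.

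Pkp1 made up 18.5%, 15.3%, 9.04% and 17.0% of the summed Pkp1 and Pkp2 counts in the glands, in order. For tumours 1 to 6 the share was 36.1%, 52.7%, 75.0%, 77.2%, 74.4% and 50.4%. The share of Pkp1 was higher in every tumour than in every gland. Per kilobase of transcript, Pkp2 exceeded Pkp1 in every gland and in tumours 1, 2 and 6, and Pkp1 exceeded Pkp2 in tumours 3, 4 and 5. Against Pkp3, the share of Pkp1 was 13.7% to 32.1% in glands and 38.6% to 88.7% in tumours.

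Dsc3 showed no such division. It made up 22.3%, 70.1%, 64.4% and 0% of the summed Dsc3 and Dsc2 counts in the glands, in order. For tumours 1 to 6 the share was 4.93%, 74.6%, 0%, 23.6%, 39.3% and 2.15%. The zero shares rest on 57 counts in gland 4 and 645 in tumour 3, which allow up to 5.26% and 0.465%. Glands 2 and 3 and tumour 2 were high together, and the ranges of the groups coincided almost wholly.

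**Figure D4:**
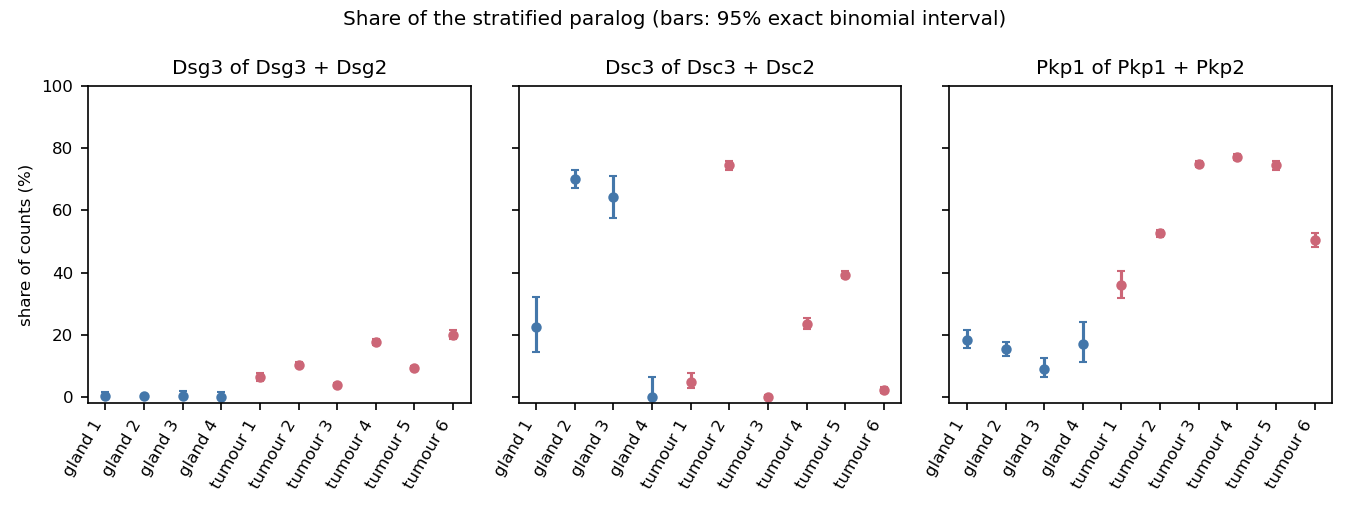
Share of counts (%) of Dsg3, Dsc3 and Pkp1 within the pair each forms with Dsg2, Dsc2 and Pkp2, in 4 glands (blue) and 6 tumours (red), with exact 95% binomial intervals that cover counting error only. The shares of Dsg3 and Pkp1 separate the groups, and that of Dsc3 runs from 0% to 70.1% in glands and from 0% to 74.6% in tumours.

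The order of levels also changed, here as CPM per kilobase of the longest coding transcript in a GRCm38 annotation. In glands, Jup was the most abundant member in 4 of 4 libraries, at 16.4 ± 4.07 CPM per kilobase (SD, n = 4). Pkp2 (4.91 ± 1.67), Perp (4.00 ± 1.66) and Pkp3 (3.34 ± 1.41) followed and did not differ from each other beyond their spread. Dsg2 (2.58 ± 0.62) lay within the spread of Pkp3, and Dsp was at 1.23 ± 0.32. Dsc3 (0.89 ± 1.00), Dsc2 (0.78 ± 0.24) and Pkp1 (0.52 ± 0.22) came next, with Dsg3 lowest.

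In tumours, Perp was the most abundant in 6 of 6 libraries, at 193 ± 124 CPM per kilobase (SD, n = 6), and Jup followed at 29.8 ± 7.68. Dsg2 (15.4 ± 3.98), Pkp1 (14.1 ± 10.8), Pkp2 (11.2 ± 4.81), Pkp3 (10.9 ± 6.09) and Dsp (8.84 ± 2.47) overlapped in their spread. Dsc2 was at 6.61 ± 4.61 and Dsc3 at 3.12 ± 4.10. By mean, Pkp1 thus went from place 9 in the glands to place 4 in the tumours. In single libraries its places overlapped, at 7 to 9 in glands and 2 to 8 in tumours.

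Dsc3 was set beside 3 genes of the basal epithelial layer, chosen after their values were seen. Krt5, the basal keratin, was at 18.2, 407, 0.15, 161, 1218 and 37.9 CPM in tumours 1 to 6, Trp63 at 6.43, 75.5, 0.96, 27.2, 105 and 7.98 CPM, and the hemidesmosomal collagen Col17a1 at 3.14, 119, 0.025, 10.2, 9.78 and 6.73 CPM. Tumours 2, 4 and 5 were the 3 highest for each of these and for Dsc3. Other basal, myoepithelial and hemidesmosome genes were ordered differently: Acta2, Oxtr, Cnn1 and Itga6 were each highest in tumour 6, at 135, 25.1, 15.5 and 169 CPM, and Myh11 was lowest in tumour 4, at 0.311 CPM. Tumour 3 held 6 counts of Krt5, 1 of Col17a1 and 0 of Dsc3, yet it had the highest Pkp1, 141 CPM, and 294 CPM of Perp. In the glands, Krt5 (7.72 to 17.7 CPM) and Trp63 (3.85 to 13.8 CPM) were not higher in glands 2 and 3, where Dsc3 was.

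**Figure D5:**
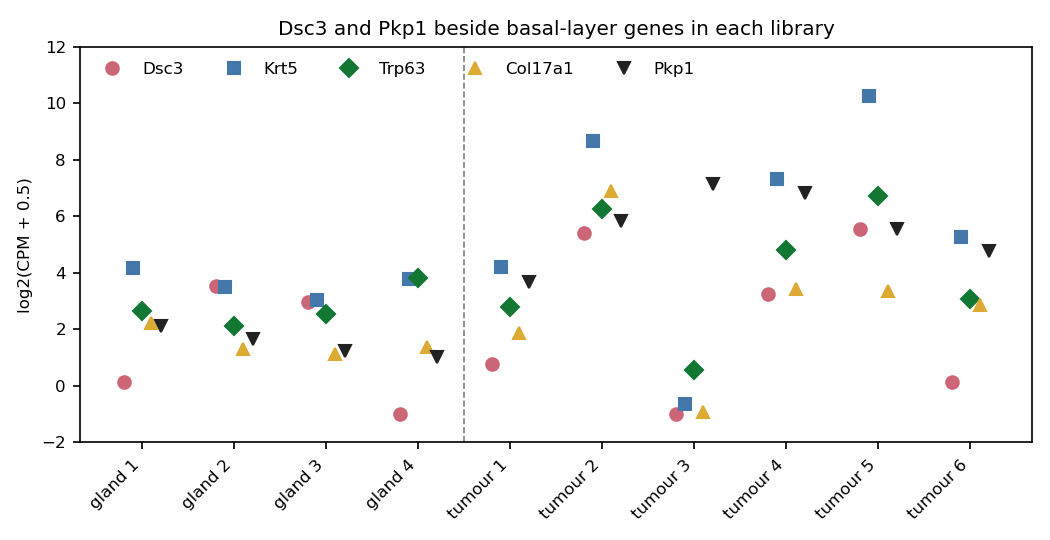
Levels as log2(CPM + 0.5) of Dsc3, Krt5, Trp63, Col17a1 and Pkp1 in each library, with a dashed line between glands and tumours and markers offset sideways so that none is hidden. In tumour 3 Dsc3, Krt5 and Col17a1 are at or near 0 counts while Pkp1 is at its highest, 141 CPM.

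Tumour 5 had the highest Dsg2 and Dsg1a of the 10 libraries, though not the highest Dsg3. Dsg1a, a desmoglein of differentiated epidermis, was at 254 CPM there (13707 counts), at 9.25 CPM in tumour 4 and at 0.43 CPM or less in each other library. That value was 44.7 CPM per kilobase. Dsg1b was at 9.76 CPM in tumour 5 and at 1.37 CPM or less elsewhere. Dsg1a and Dsg1b are near-identical, so how their reads were divided is uncertain, and Dsg1a was singled out after its values were seen. The log2 difference was 7.25 for Dsg1a (SE 2.80, adjusted p = 0.0987, edgeR). The summed epidermis markers of tumour 5 were at 4.36 CPM, inside the gland range of 2.80 to 7.74 CPM. Those of tumour 4 were at 141 CPM, of which Flg, filaggrin, gave 95.6 CPM. Tumour 4 also had the highest Dsg3, 19.3 CPM, and held 112 CPM of Pkp1. Without tumour 4 the log2 fold change was 8.23 for Dsg3 and 4.54 for Pkp1 (adjusted p = 0.0031 and 0.0101, edgeR). The part of epidermis in these levels was not tested.

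Of 10 further desmosome and cornified envelope genes, 7 could be tested, of which 1 rose and 0 fell (median 1.5), next to 6.89% and 8.19% of all genes. Relative to the epithelial genes 0 were higher and 3 lower (median -0.85), where 1.17% of all genes were higher and 67.6% lower. Pkp4, an armadillo protein related to the plakophilins, rose by 1.73 (SE 0.34, adjusted p = 0.0108, edgeR) and was at -0.48, not called, relative to the epithelial genes. Envoplakin (Evpl), which crosslinks into the cornified envelope, was at 1.5 (adjusted p = 0.063) and periplakin (Ppl) at 1.10 (adjusted p = 0.177).

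Of the 13 keratins that desmosomes may anchor, 8 rose and 0 fell (median 4.38; 6.89% and 8.19% of all genes). Krt7, a simple keratin, rose by 2.62 (SE 0.37, adjusted p = 0.0037, edgeR) and Krt6a, a keratin of activated stratified epithelium, by 9.70 (SE 1.79, adjusted p = 0.0087). Krt6b, a near-identical copy of Krt6a whose reads may be divided between the pair, gave 1 count over all glands and 15.9 ± 17.1 CPM in tumours (SD, n = 6). Relative to the epithelial genes, 5 of the 13 were higher and 0 lower (1.17% and 67.6% of all genes), and Krt7 was at 0.34 (adjusted p = 0.389). Krt8, Krt18 and Krt19 are themselves scaling genes, so their values on that scale are partly set by the scaling.

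Of 10 adherens junction genes, 4 rose and 0 fell (median 1.11; 6.89% and 8.19% of all genes), while relative to the epithelial genes 0 were higher and 5 lower (median -1.11; 1.17% and 67.6% of all genes). E-cadherin, Cdh1, rose by 2.49 (SE 0.32, adjusted p = 0.0025, edgeR), Nectin4 by 1.54 (adjusted p = 0.0142) and afadin, Afdn, by 1.30 (adjusted p = 0.0229). Relative to the epithelial genes Nectin4 and Afdn were at -0.77 and -0.95. Cdh1 is itself a scaling gene, so its value on that scale is partly set by the scaling. Of 6 hemidesmosome genes, which anchor keratin to the basement membrane, 1 rose and 2 fell (median 0.21; 6.89% and 8.19% of all genes), and relative to the epithelial genes 0 were higher and 4 lower (median -2.17; 1.17% and 67.6% of all genes). The integrin Itgb4 rose by 2.99 (SE 0.58, adjusted p = 0.01), while the linkers Dst (log2 fold change -1.64, adjusted p = 0.0309, edgeR) and Plec (-1.6, adjusted p = 0.0482) fell. Dst and Plec are also expressed in muscle, and skeletal muscle markers were present in glands 1, 2 and 4; their part in this was not tested.

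Of 15 regulators of epithelial adhesion genes, 7 rose and 3 fell (median 1.57; 6.89% and 8.19% of all genes), and relative to the epithelial genes 4 were higher and 7 lower (median -0.64; 1.17% and 67.6% of all genes). Grhl2, a Grainyhead-like factor, rose by 3.17 (SE 0.31) and the splicing factor Esrp1 by 3.20 (SE 0.34), each with an adjusted p of 0.0016 (edgeR). Esrp1 is itself a scaling gene and is counted among the 4 called higher relative to the epithelial genes. The 3 that fell were the mesenchymal repressors Zeb1, Twist1 and Zeb2, with log2 fold changes of -2.98, -2.61 and -2.34 and adjusted p-values of 0.0187, 0.0208 and 0.0289. The summed adipocyte markers were lower in every tumour than in every gland, and 7 endothelial markers summed to 200 to 239 CPM in glands and 36.6 to 437 CPM in tumours; the part of fat and stroma in the fall of these repressors was not tested.

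The genes whose levels over the 6 tumours were most like those of Dsg3, among 11263 genes with a mean of at least 5 CPM in tumours, were Rhbdf2 (Pearson r = 0.986), Inf2 (0.982), Kti12 (0.980), Igsf8 (0.974) and Lfng (0.972). Those most like Perp were Txnrd3 (0.958), Fgfr3 (0.955), Pwwp2a (0.953), Scube3 (0.952) and Phip (0.943). These were picked as the highest of many over 6 points and describe these libraries only. Among the desmosome genes themselves, Perp and Dsp had the highest correlation over the 6 tumours, 0.93, followed by Dsg2 and Dsc2 at 0.83, the latter with tumour 5 far above the others for both.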

How the data were processed

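Whole-number read counts per gene symbol, in the form deposited by the authors, were used for 4 wild-type glands and 6 tumours of a series of 13 samples; the 3 purified epithelium samples were not analysed here. Libraries were prepared from polyA RNA of TRIzol extracts, per the labels' protocols. Salmon 1.2.0, DESeq and the mm9 build are named, per the submitters' processing notes, but what each did and how genes were formed from transcripts were not stated. Reads of near-identical genes may thus have been assigned by a model.

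Groups follow the labels, which do not say whether each library is its own animal. A p-value thus reflects spread among these libraries, which may be technical. The sequencing run of each was not known. No pair of libraries was a copy: chi-square per degree of freedom was 37.8 or more for every pair. Genes were kept by filterByExpr defaults, scaled by TMM (factors 0.420 in tumour 1, 0.581 in gland 4, and 0.891 to 1.41 in the others) and tested with edgeR 4.0.16 (R 4.3.3) by the quasi-likelihood test, two-sided, tumour against gland, with Benjamini-Hochberg adjustment over all 20101 genes tested and a threshold of 0.05. The biological coefficient of variation was 0.707. The test was tested on simulated data. Standard errors are the log2 fold change over the square root of F. CPM is TMM-scaled, with a pseudocount of 0.5 for log2 levels, and is given as mean ± SD where so marked.

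Alternatives were RLE, upper-quartile and pan-epithelial scaling, DESeq2 1.42.0, limma-voom (limma 3.58.1), no filter and a stricter filter, age as a covariate, other pseudocounts and class memberships, and fits without libraries. Transcript lengths are from GENCODE M21 (GRCm38) and promoters from RefSeq (GRCm38.p6), matched by symbol, which is not the build of the counts. The 10 desmosome genes and all lists were chosen with earlier results of these data known. All 10 were named; from each other list, the called genes with the lowest adjusted p were named, at most 3 each way (1 such gene is not reported here), and for Dsg3 and Perp the 5 most correlated genes. Genes named outside this rule, such as Evpl, Ppl and the basal genes, were chosen after their values were seen.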

Additional observations from a re-analysis of the deposited data

Results flagged for a closer look

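In 22 groups of values tested for a single library far from the rest (Dixon's test at 95%), 2 were flagged, and chance flags about 1 in 20 groups. Both belong to tumour 5. Its Dsg2 level was 133 CPM, against 71.4 to 89.7 CPM in the other 5 tumours. Its Dsc2 level was 72.3 CPM, against 14.4 to 29.5 CPM in the others. The same library held Dsg1a at 254 CPM and, of the 6 tumours, the lowest Pkp2, 16.0 CPM.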

How the results depend on the processing

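The number of desmosome genes called higher was 7, with 0 lower. It was 6 to 9, with 0 lower, under every alternative run but pan-epithelial scaling, where 3 were higher and 2 lower; with each library left out in turn it was 6 to 8. Calls of Dsg3, Pkp1 and Perp held under all 21. Those of Dsg2, Dsc2 and Dsp were lost only under pan-epithelial scaling. That scaling also reversed 4 genes, to -1.21 for Pkp2, -0.64 for Dsc3, -1.35 for Jup and -0.66 for Pkp3; the cause was not tested. Within it, Dsg2 turned to -0.039 with the 7 scaling genes that are not keratins, and Dsc3 to 0.030 without gland 2 (range -1.56 to 0.030 over libraries left out). The difference between stratified and simple classes, 1.54, was 0.98 to 2.09 over all alternatives, and 1.31 to 1.75 over libraries left out.

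The count of all genes called, 3030, was less stable: 13816 under pan-epithelial scaling, 5252 by DESeq2, 1899 with age as a covariate, 4641 without tumours 1 and 6 and gland 4, 1010 without glands 2 and 3, and 1053 to 3517 over libraries left out, lowest without gland 1, 2 or 3 (1053, 1494 and 1769) and without tumour 2 or 4 (2009 and 1837); the cause was not tested beyond the smaller number of libraries. Upper-quartile scaling moved the split to 1809 higher of 3122, from 1384 of 3030. The fits without glands 2 and 3, and the fits that combine pan-epithelial scaling with other choices, were added after seeing the data.

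No paired analysis was possible because the labels give glands and tumours no shared replicate numbers. Gland counts of Dsg3 are at or near 0, so its fold is limited by depth.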
